A study of Arabidopsis with 6 samples.

Results

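The plastid and the mitochondrion of a plant cell keep small genomes of their own, and their transcripts were followed here by locus through the first hours of greening. Members were all listed loci whose identifier starts with ATCG, which marks the plastid genome, or ATMG, which marks the mitochondrial genome. These came to 55 of the 19763 listed loci, 15 plastid and 40 mitochondrial. The Arabidopsis genotypes were the wild type (WT) and RNAi-21, a line whose label names RNA interference and PCD8. Seedlings of both spent 4 days in the dark. Samples came from the dark (0 h) and from 0.5 h and 2 h of light, with 1 RNA sequencing library for each of the 6 groups. RNAi-21 is a single line, and no source used here names its promoter. The level of PCD8 is not analysed here because no locus of the name table carries that name.

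Plastid genes are transcribed by a bacterial-type RNA polymerase, whose core is encoded in the plastid and which needs sigma factors from the nucleus, and by phage-type polymerases encoded in the nucleus. Mitochondrial genes are transcribed by phage-type polymerases only. Seedlings in the dark hold etioplasts, which become chloroplasts on illumination, and many subunits of the photosynthetic and respiratory complexes are plastid- or mitochondrion-encoded. Organelle transcripts seldom carry stable poly(A) tails, and no source used here says whether poly(A) RNA was selected. The name table lists organelle genes under other tags and paired 0 of the 55 identifiers with a name, so the loci are called by identifier and no function is given to any of them. Sequences of the members are not shown for the same reason.

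Values were read as FPKM, a level scaled for transcript length and library size, and summed to between 757504 and 891009 per library. The read depth behind them is unknown, and no value has a replicate. Differences were taken between values of log2(FPKM + 1), in which weak loci appear to change less than they do, and a difference of at least 1 is called 2-fold. The tissue label is leaf. Transcripts of the 4 green-tissue markers summed to 3739 FPKM in RNAi-21 at 0.5 h and to between 5191 and 6228 in the other 5 libraries. Transcripts of the 4 listed root markers, led by PYK10 and TIP2;3, summed to between 5173 and 6206 in WT and between 7486 and 8534 in RNAi-21, ranges that do not overlap. The sums follow those 2 genes, and the list was divided. The genotype effect in limma was 0.60 for PYK10 and 0.22 for TIP2;3, but -0.20 for EXPA7 and -0.10 for SHV2. None of the 4 was at 0, and the part of these transcripts in the results below was not tested. The 3 seed markers summed to 158 in WT at 0.5 h, so that this library stands apart, and to 1.19 and 1.72 in WT at 0 and 2 h. In RNAi-21 they summed to 5.62, 14.6 and 31.1 at 0, 0.5 and 2 h, above WT at 0 and 2 h. The part of the seed markers in the results below was not tested.

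Plastid-encoded transcripts were lower in RNAi-21 than in WT in the dark and closer to the WT level after 2 h of light. The 15 loci in WT had summed FPKM of 231 at 0 h, 174 at 0.5 h and 222 at 2 h. In RNAi-21 they summed to 69.1, 86.9 and 166. As deposited, the 3 RNAi-21 sums thus lay below all 3 WT sums, the closest being RNAi-21 at 2 h and WT at 0.5 h. Median-ratio scaling, an alternative that divides these 2 libraries by 0.971 and 1.022, reverses the order of the 2. The ratio of RNAi-21 to WT went from 0.299 at 0 h to 0.500 at 0.5 h and 0.749 at 2 h. The sums of mitochondrion-encoded transcripts followed with smaller differences. Their 40 loci summed to 1884, 1555 and 1735 in WT, while RNAi-21 had 946, 1043 and 1591, at ratios of 0.502, 0.671 and 0.917. The lowest WT sum, at 0.5 h, lay below the highest RNAi-21 sum, at 2 h. These mitochondrial sums are mostly 3 loci. Without the 3, the ratios were 0.353, 0.573 and 0.637, nearer to the plastid ratios at 0 and 0.5 h and below the plastid ratio at 2 h. In bulk samples, fewer cells of a type and less RNA per cell cannot be told apart, and the same holds for fewer organelles and less RNA per organelle.

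**Figure D1:**
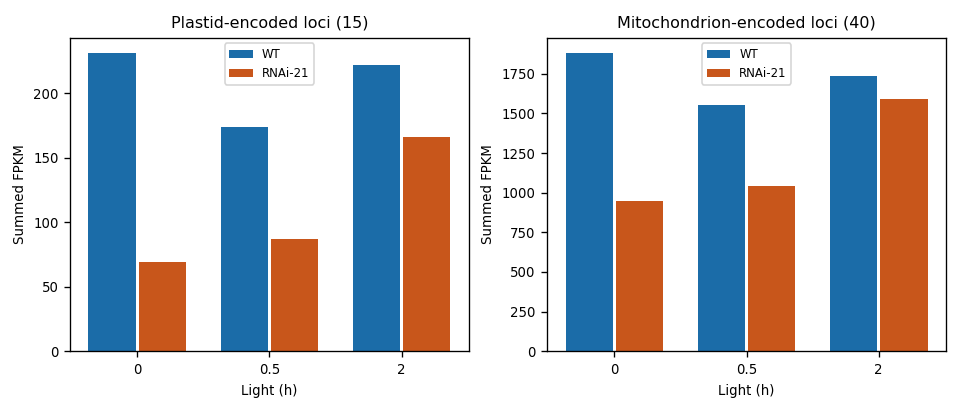
Summed FPKM (y axis, linear from 0) of the 15 plastid-encoded loci (left) and the 40 mitochondrion-encoded loci (right) at 0, 0.5 and 2 h of light, each bar 1 library of WT or RNAi-21. The RNAi-21 bars stand at 69.1 in the dark and 166 at 2 h on the left, and at 946 and 1591 on the right, while the WT bars stay between 174 and 231 and between 1555 and 1884.

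The listed organelle loci held little of the listed total. The name table holds 85 protein-coding plastid genes, while 15 plastid loci of any kind are listed here. The plastid sums, shares and ratios thus cover only a part of the plastid genome. In the dark, plastid loci took 0.0279% of the summed FPKM of WT and 0.00871% of that of RNAi-21, and mitochondrial loci took 0.227% and 0.119%. The ratio of the plastid to the mitochondrial sum, chosen after the values were seen, does not depend on how libraries are scaled against each other. It was 0.123, 0.112 and 0.128 in WT at 0, 0.5 and 2 h, and 0.0730, 0.0833 and 0.104 in RNAi-21, so all 3 RNAi-21 values lay below all 3 WT values. This separation depended on 3 mitochondrial loci, ATMG00020, ATMG00030 and ATMG01390, which made up 95.6% to 97.0% of the mitochondrial sum. Set against the other 37 mitochondrial loci, the plastid sum was 2.76, 3.09 and 2.92 times as high in WT and 2.34, 2.70 and 3.43 times as high in RNAi-21, and the genotypes overlapped.

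Over single plastid loci, the dark difference was broad. At 0 h, 12 of the 15 were at least 2-fold lower in RNAi-21 and 0 were 2-fold higher, where 0.396% of all 18441 loci with an FPKM of at least 1 in some library were 2-fold lower and 0.168% were 2-fold higher. The median difference was -1.36 over the 15 loci and -0.01 over all listed loci. Of the 13 loci above 0 in both libraries, all were lower in RNAi-21, with FPKM ratios from 0.0972 for ATCG00100 to 0.468 for ATCG00830 and a median of 0.281. In all 13 of the 15 differences were below 0, against 51.0% of all listed loci. At 0.5 h, 8 plastid loci were at least 2-fold lower and 1 was higher, against 0.428% and 0.841% of all loci, with 12 below 0 against 54.2% and a median of -1.09. The green-tissue markers were lower in RNAi-21 at 0.5 h as well, 4 of 4 with a median of -0.74, and their part in this difference was not tested. At 2 h, 2 plastid loci were lower and 1 higher, against 0.222% and 0.575%, with 11 below 0 against 52.9% and a median of -0.28. The locus counted as higher at 0.5 h and 2 h is ATCG00210, which is listed at 0 in every WT library. Of the 15 plastid loci, 14 reached the FPKM of 1 needed for the tests.

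ATCG00280 had the highest mean level of the plastid loci. It was at 52.4, 42.2 and 66.4 FPKM in WT at 0, 0.5 and 2 h, and at 8.94, 11.5 and 40.4 in RNAi-21. All RNAi-21 libraries were below all WT libraries, and the level was 5.86-fold higher in WT in the dark and 1.65-fold higher at 2 h. ATCG00730 was at 13.3, 9.88 and 10.4 in WT and at 1.97, 1.37 and 4.55 in RNAi-21, without overlap. Its difference from WT was -2.27 in the dark, -2.20 at 0.5 h and -1.04 at 2 h. The genotype effect of ATCG00730 over the 3 times was -1.84 ± 0.24 (SE, limma), which did not pass with an adjusted p of 0.062. ATCG00720 was at 13.3, 8.80 and 11.3 in WT and at 3.05, 2.65 and 5.05 in RNAi-21, again without overlap. ATCG00720 was the only plastid locus to pass the genotype test, at -1.42 ± 0.16 with an adjusted p of 0.040 (limma, 6 libraries), and was lower at 3 of 3 times.

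Of 3 further plastid loci, which are not consecutive in level, 1 overlapped between the genotypes. ATCG00830 was at 32.2, 29.4 and 34.9 in WT and at 15.1, 16.7 and 30.3 in RNAi-21, where the 2 h library reached the lowest WT value. ATCG00360 was at 30.7, 23.7 and 25.9 in WT and at 7.65, 8.72 and 17.2 in RNAi-21, with no overlap. ATCG01100 was at 14.9, 13.8 and 16.8 in WT and at 6.10, 5.41 and 11.7 in RNAi-21. In this locus too all RNAi-21 libraries were lower, and its genotype effect of -0.95 ± 0.16 did not pass (adjusted p = 0.11, limma).

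A few plastid loci behaved otherwise. ATCG01040 went from 19.8 to 13.6 and 12.6 in WT and from 8.47 to 15.8 and 18.7 in RNAi-21, so that RNAi-21 was lower in the dark and higher at both light times. ATCG00010 was at 27.9, 9.51 and 19.5 in WT and at 10.2, 14.8 and 18.0 in RNAi-21, and the 0.5 h library of WT held its lowest value. ATCG00210 was listed at 0 in all 3 WT libraries and at 0.280, 2.21 and 1.36 in RNAi-21. An exact 0 in such files can be a failed estimate, so no fold is given for it. ATCG00450 was listed at 0 in 5 libraries and at 0.0201 in WT at 0.5 h. The other 5 plastid loci were named after their values were seen. ATCG00180, ATCG00670, ATCG00790 and ATCG00130 had all RNAi-21 libraries below all WT libraries, with WT 3.56-fold, 2.69-fold, 3.42-fold and 5.78-fold higher in the dark and 1.60-fold, 1.02-fold, 1.32-fold and 2.30-fold higher at 2 h. ATCG00100 was at 3.0, 1.82 and 1.15 in WT and at 0.292, 0.758 and 2.11 in RNAi-21, crossing as ATCG01040 did. Over the 3 times, 9 plastid loci had all RNAi-21 libraries below all WT libraries, 1, ATCG00210, had them above its zeros in WT and 5 overlapped. Of the 9, ATCG00670 was at 6.71 in RNAi-21 and 6.85 in WT at 2 h. Median-ratio scaling, which divides these 2 libraries by 0.971 and 0.997, makes that locus overlap. Over all listed loci 4.80% were separated downwards and 3.57% upwards.

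**Figure D2:**
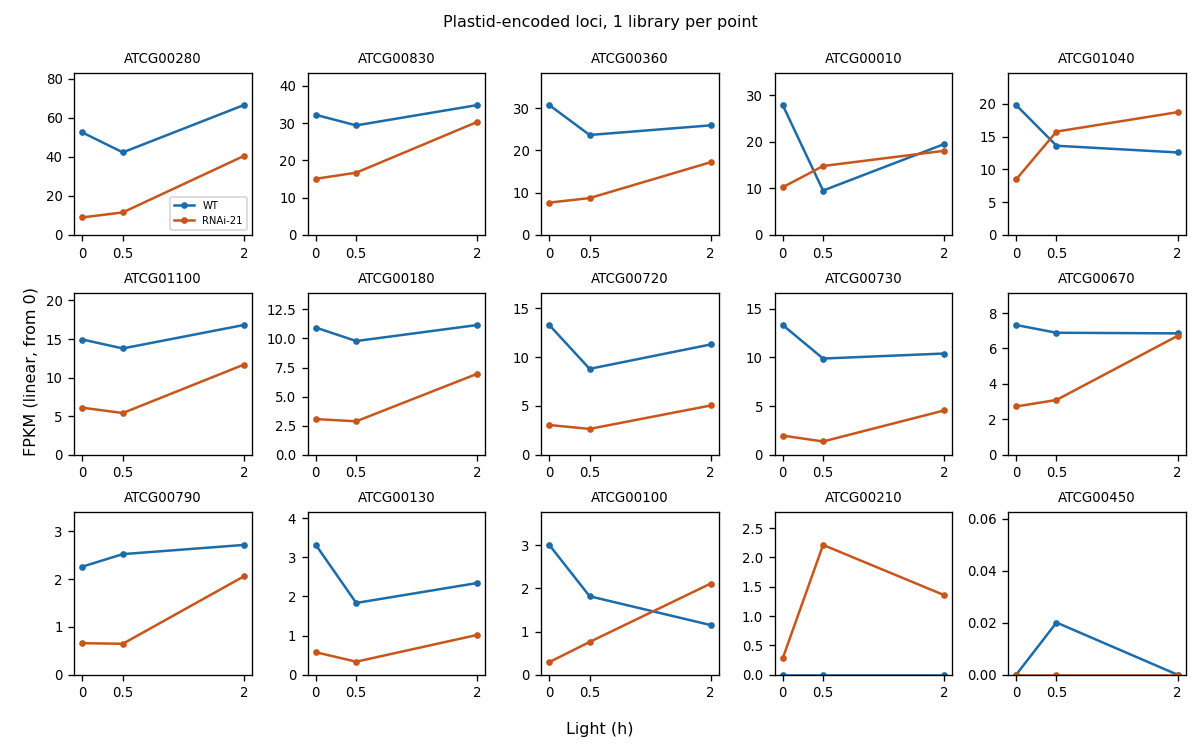
FPKM (y axis, linear from 0, own scale per panel) of each of the 15 plastid-encoded loci against hours of light (x axis) in WT and RNAi-21, each point 1 library, ordered by mean level. In 9 panels the RNAi-21 line stays below every WT point, while ATCG01040 and ATCG00100 cross and ATCG00210 is at 0 in WT.

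Mitochondrial loci were lower in RNAi-21 in smaller numbers. In the dark 7 of 40 were at least 2-fold lower and 0 higher. At 0.5 h 2 were lower, at 2 h 3 were lower, and 0 were 2-fold higher at either time. The shares over all loci are those given above for the plastid loci. The median differences were -0.44, -0.16 and -0.10 at 0, 0.5 and 2 h. Of the 40 mitochondrial loci, 22 reached an FPKM of 1 in some library. The other 18 did not, and are too weak for this scale to show a 2-fold change. The median FPKM ratio of RNAi-21 to WT was 0.379 at 0 h over 39 loci above 0 in both libraries, 0.650 at 0.5 h over 40 and 0.795 at 2 h over 39. In the dark 36 of the 40 were below WT, against 51.0% of all listed loci, and at 2 h 29 were, against 52.9%.

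**Figure D3:**
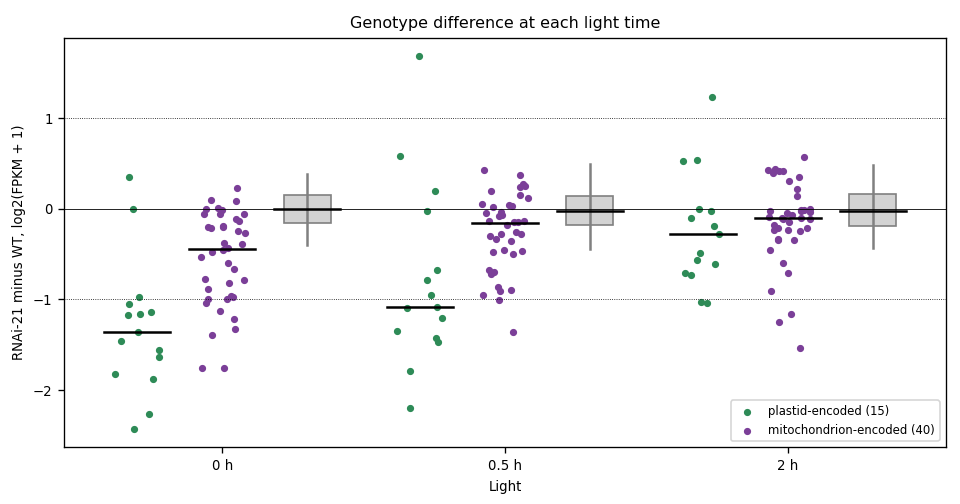
Difference between RNAi-21 and WT on the log2(FPKM + 1) scale (y axis) at 0, 0.5 and 2 h of light, with 1 point per plastid-encoded or mitochondrion-encoded locus and a black bar at each median, beside a box (quartiles, with lines to the percentiles 5 and 95) of all other listed loci. The plastid medians are -1.36, -1.09 and -0.28, and the mitochondrial medians -0.44, -0.16 and -0.10.

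The time courses of the mitochondrial loci differed. The 3 most abundant were low in dark-grown RNAi-21 and near WT after 2 h. ATMG00020 was at 972, 767 and 849 in WT and at 444, 481 and 790 in RNAi-21. ATMG00030 was at 555, 490 and 531 in WT and at 325, 356 and 501 in RNAi-21. ATMG01390 was at 273, 241 and 279 in WT and at 148, 173 and 252 in RNAi-21. In each of these the RNAi-21 libraries at 0 and 0.5 h were below all WT libraries, and the 2 h library lay inside the WT range. WT was 2.19-fold, 1.71-fold and 1.85-fold higher in the dark, and 1.07-fold, 1.06-fold and 1.11-fold higher at 2 h. None of the 3 passed the genotype test, with adjusted p between 0.27 and 0.30 in limma.

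A second set stayed low at 2 h, and it holds the 3 mitochondrial loci that fell in the genotype test. ATMG00090 was at 13.5, 9.74 and 12.3 in WT and at 4.50, 3.19 and 4.92 in RNAi-21, and its genotype effect was -1.31 ± 0.10 with an adjusted p of 0.011 (limma). ATMG00070 was at 9.51, 6.47 and 11.8 in WT and at 3.54, 2.86 and 4.40 in RNAi-21, with an effect of -1.14 ± 0.11 (adjusted p = 0.026, limma). ATMG00580 was at 14.3, 6.18 and 13.4 in WT and at 3.52, 2.84 and 3.98 in RNAi-21, with an effect of -1.40 ± 0.17 (adjusted p = 0.047, limma). For all 3 no RNAi-21 library reached the lowest WT value, and WT was 2.49-fold to 3.37-fold higher at 2 h. ATMG00640 was at 11.1, 4.69 and 6.24 in WT and at 2.58, 2.52 and 2.87 in RNAi-21, also without overlap, and did not pass. ATMG00510 was at 3.61, 1.91 and 1.77 in WT and at 0.833, 0.451 and 1.02 in RNAi-21, with differences of -1.33 in the dark and -0.46 at 2 h, so that it was closer to WT at 2 h than the loci above. ATMG00285 and ATMG01320, named after their values were seen, were 2.94-fold and 2.47-fold higher in WT at 2 h, without overlap, and did not pass.

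ATMG01220 was the only one with all RNAi-21 libraries above all WT libraries, at 0.561, 0.637 and 1.27 against 0.336, 0.263 and 0.527, and its effect of 0.39 did not pass. ATMG01170 was at 3.38, 2.88 and 2.01 in WT and at 1.13, 1.08 and 3.07 in RNAi-21, so the order of the genotypes turned at 2 h. ATMG00320 was listed at 0 in WT at 2 h and ATMG01040 at 0 in dark-grown RNAi-21, and both stayed under an FPKM of 1 in every library. The highest dark difference after ATMG01220 was 0.10 for ATMG00950, where WT had an FPKM of 0.0304 and RNAi-21 one of 0.104. In all, 17 of the 40 had RNAi-21 wholly below WT, 1 wholly above, and 22 overlapped. Over all listed loci 4.80% were wholly below and 3.57% wholly above, so the 1 above does not stand out.

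**Figure D4:**
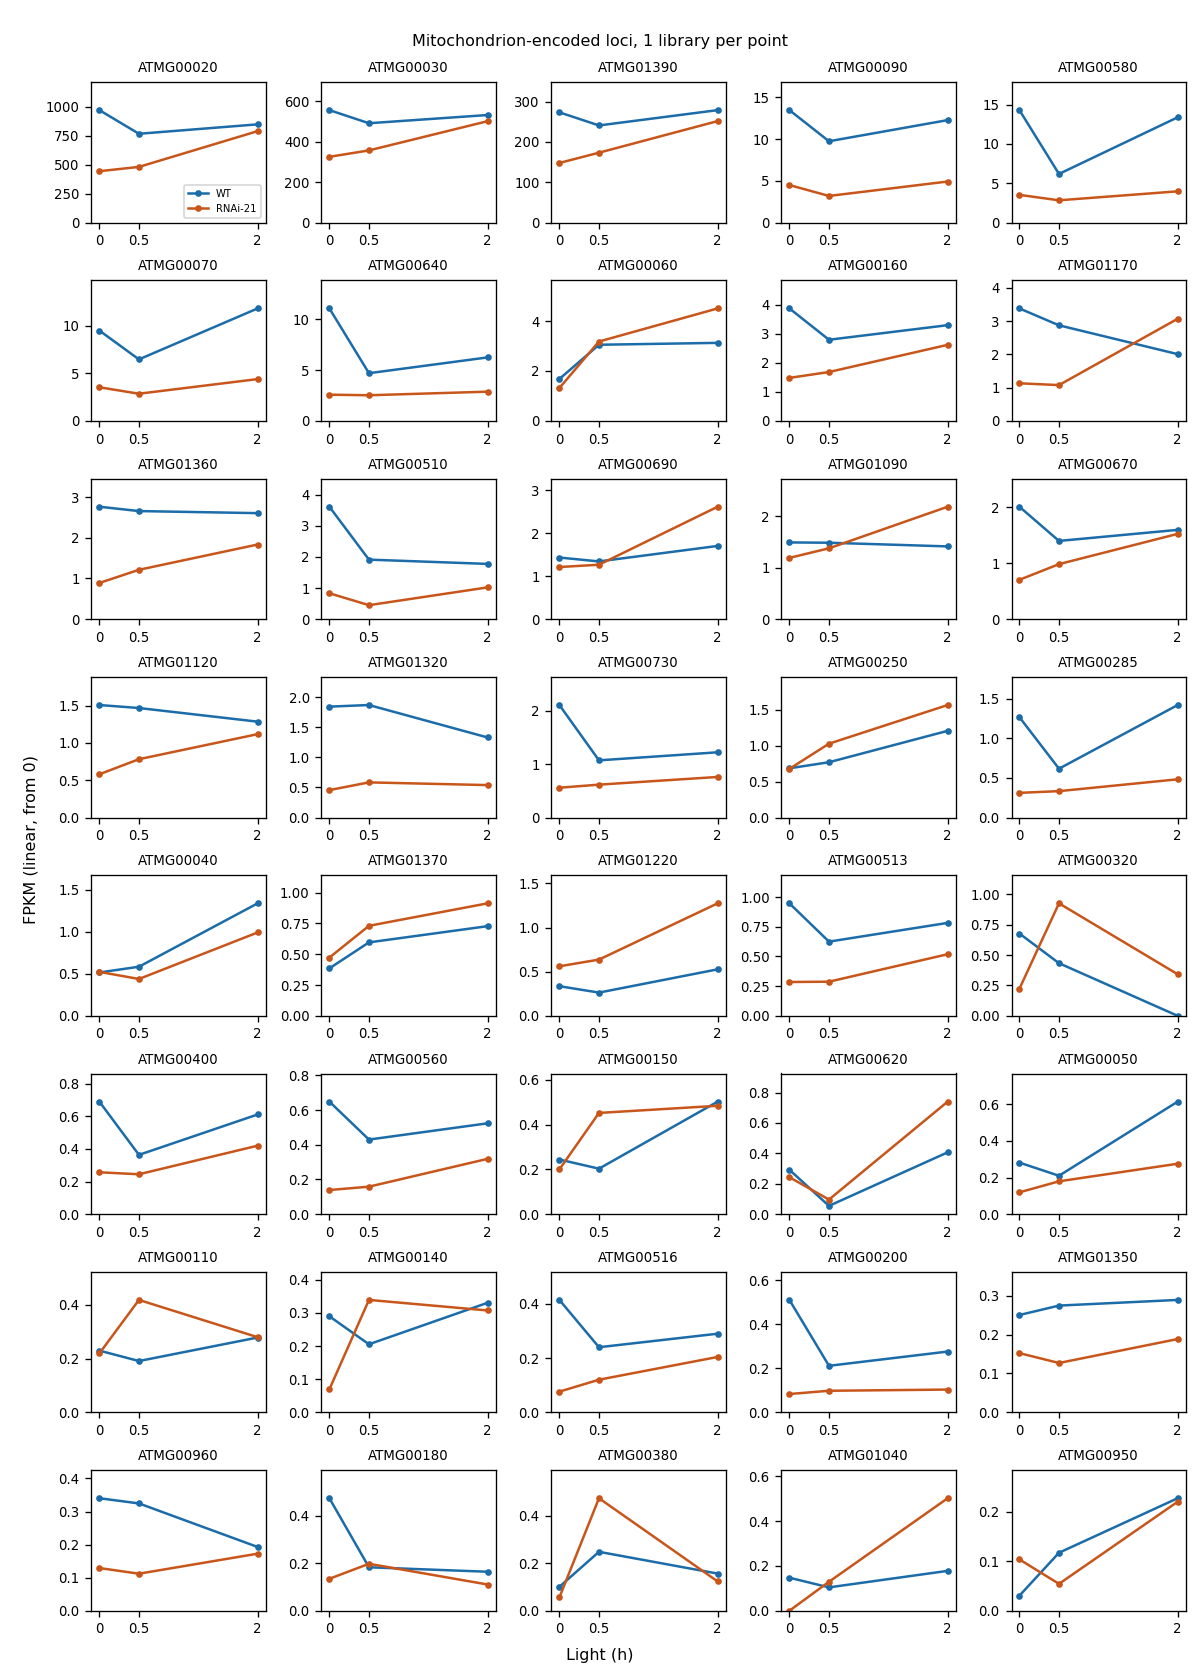
FPKM (y axis, linear from 0, own scale per panel) of each of the 40 mitochondrion-encoded loci against hours of light (x axis) in WT and RNAi-21, each point 1 library, ordered by mean level. The first 3 panels are close to WT at 2 h, while ATMG00090, ATMG00580 and ATMG00070 stay below every WT point.

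The genotype test over all 3 times was 1 limma fit of 18441 loci on genotype plus light time, with Benjamini-Hochberg adjustment. Of the 36 members tested, 4 fell and 0 rose in RNAi-21, against 0.0705% and 0.0976% of all loci tested. At an unadjusted p under 0.05, 24 members were lower and 2 higher, where 1143 and 1151 of the 18441 loci were. With 1 library a group, its error has 2 residual degrees of freedom and comes from the change of the genotype difference between times, not from the spread between plants. Loci whose difference closed with light therefore carry a large error, as with ATCG00280 at -1.64 ± 0.28 (adjusted p = 0.12, limma). Without the 2 h libraries 1 member was called lower, and none of the 4 kept its call. Without the 0.5 h libraries 14 were called lower and without the 0 h libraries 9, each with all 4 among them, and without a light time term 0 were.

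Between the dark and 2 h of light, most members differed more in RNAi-21 than in WT. From 0 to 2 h of light in WT, 0 of 55 members were 2-fold higher and 0 were 2-fold lower, against 7.80% and 4.56% of all loci. These shares cover only loci that reached an FPKM of 1, as 36 of the 55 members did. The other 19 are too weak for this scale to show a 2-fold change. The median was -0.08 over plastid loci and -0.06 over mitochondrial loci. In RNAi-21, 5 plastid loci and 1 mitochondrial locus were 2-fold higher and 0 were lower, against 8.85% and 4.37%, with medians of 0.90 and 0.25. All 14 plastid loci above 0 in both libraries had a higher level at 2 h, at FPKM ratios of 1.66 to 7.23 with a median of 2.26. The 39 mitochondrial loci above 0 in both had ratios of 0.820 to 4.41 with a median of 1.82. By FPKM ratio the 2 organelles were thus closer than by the medians of log2(FPKM + 1), which shrink changes of weak loci. Of the differences, 14 of 15 plastid and 39 of 40 mitochondrial were above 0, against 46.2% of all listed loci. The response of RNAi-21 was above that of WT in 14 of 15 plastid and 36 of 40 mitochondrial loci, against 51.2% of all listed loci, by a median of 0.94 and 0.34. This difference between genotypes was not tested, because each response is 1 library against 1. It rests on the same 4 libraries as the genotype differences at 0 and 2 h. With totals equalised over nuclear loci, 2 plastid loci in place of 5 were 2-fold higher in RNAi-21 at 2 h, and the median of all genes moved from -0.04 to -0.19.

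**Figure D5:**
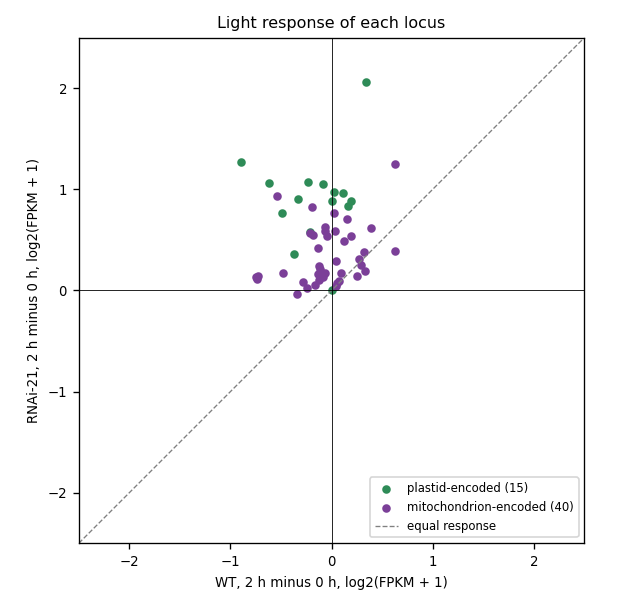
Change from 0 to 2 h of light on the log2(FPKM + 1) scale in WT (x axis) and RNAi-21 (y axis), with 1 point per plastid-encoded or mitochondrion-encoded locus and a dashed line of equal response. Of the points, 50 lie above the dashed line, among them 14 of the 15 plastid loci, and ATCG00280 is highest at 2.06.

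The first 0.5 h brought small shifts. In WT 1 plastid and 2 mitochondrial loci were 2-fold lower and 0 were higher, against 1.10% and 0.819% of all loci, with medians of -0.30 and -0.18. In RNAi-21 1 plastid locus was 2-fold higher and 0 members were lower, against 1.78% and 0.906%, with medians of 0.14 and 0.07. The WT library at 0.5 h is the one with the high seed marker sum. The part of that difference in the lower WT values was not tested.

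The additive fit also gave the light effect averaged over the genotypes. At 0.5 h against 0 h, 0 of 36 members passed in limma, against 1.24% of all loci tested that rose and 1.47% that fell. At an unadjusted p under 0.05, 1 member was higher and 3 were lower, where 1016 and 1177 of the 18441 loci were. At 2 h against 0 h, 3 members rose and 0 fell, against 17.1% and 15.8%. ATCG00280 rose by 1.20 ± 0.35 (adjusted p = 0.036, limma), an average of 0.34 in WT and 2.06 in RNAi-21. ATMG00060 rose by 0.93 ± 0.18 (adjusted p = 0.0074, limma). It was at 1.68, 3.05 and 3.12 in WT and at 1.32, 3.18 and 4.50 in RNAi-21, so that both genotypes were higher at both light times than in the dark. ATMG00250 rose by 0.50 ± 0.16 (adjusted p = 0.049, limma), a call lost without the 0.5 h libraries (0.059), with a pseudocount of 0.1 (0.055) and with totals equalised over nuclear loci (0.069). It was at 0.684, 0.769 and 1.21 in WT and 0.676, 1.03 and 1.56 in RNAi-21. Its level at 2 h was the highest of each genotype. Between 0.5 and 2 h, 4 members rose and 0 fell, against 15.2% of all loci tested that rose and 2216 of the 18441 that fell. These were ATCG00280 at 1.18 ± 0.35, ATMG00580 at 0.69 ± 0.21, ATMG00070 at 0.63 ± 0.14 and ATCG01100 at 0.63 ± 0.19, with adjusted p of 0.044, 0.048, 0.015 and 0.049 in limma. With no filter on low values 1 of these 4 calls held, and with totals equalised over nuclear loci 1 did.

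Lists of nuclear genes that act with the organelle genomes had median genotype differences between -0.09 and 0.24 in the dark. The lists were chosen with earlier results of these data known. In the genotype test 0 of 3 organelle RNA polymerase genes, 0 of 6 sigma factor genes, 0 of 10 tested genes of proteins associated with the plastid polymerase, and 0 of 16 genes of the respiratory chain passed in either direction in limma, a test in which 18 of all 18441 loci rose and 13 fell, so the counts of 0 do not set these genes apart. At an unadjusted p under 0.05 these lists had 0, 1, 0 and 2 genes, the sigma factor gene lower and the others higher, where 2294 of the 18441 loci were past it in either direction. Their median dark differences were 0.24, -0.09, 0.10 and -0.06, where the plastid and mitochondrial loci had -1.36 and -0.44. At 0.5 h the list medians were 0.006, -0.18, -0.04 and 0.004, where the plastid and mitochondrial loci had -1.09 and -0.16. At 2 h the list medians were -0.20, -0.18, -0.01 and 0.17, where the plastid and mitochondrial loci had -0.28 and -0.10. The contrast was thus one of the dark for the mitochondrial loci, and of the dark and 0.5 h for the plastid loci. At 2 h against 0 h of light, 17.1% of all loci tested rose and 15.8% fell in limma. All 6 sigma factor genes rose, from 0.57 ± 0.13 for SIG4 to 5.83 ± 0.27 for SIGE, the latter with an adjusted p of 2.5e-05 (limma). SCA3, a phage-type polymerase of the plastid, rose by 0.68 (adjusted p = 0.017, limma). PTAC2, a component of the plastid transcription complex, rose by 0.55 (adjusted p = 0.023, limma). Beside the same 17.1% and 15.8%, 5 of 16 genes of the respiratory chain list rose and 0 fell. Among them the cytochrome c gene CYTC-2 rose by 2.76 ± 0.19 and the succinate dehydrogenase gene SDH2-1 by 1.76 ± 0.13, with adjusted p of 8.8e-05 and 1.1e-04 in limma.

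A part of chromosome 2 is known to carry a large insertion of mitochondrial DNA, and loci there can share reads with mitochondrial members. The listed loci of that identifier range, AT2G07600 to AT2G07899, were 27, of which ABCC13 and MCM5 have symbols of ordinary nuclear genes. The other 25 had a median difference of -0.36 in the dark, where 24 of 25 were below 0 and 3 were 2-fold lower or more, beside -0.44 for the mitochondrial loci. At 2 h their median was -0.05 with 13 of 25 below 0, and from 0 to 2 h in RNAi-21 24 of 25 were above 0. In the limma genotype test 0 of the 10 tested passed, with 4 lower at an unadjusted p under 0.05, where 1143 of the 18441 loci were. How many reads the 2 sets share was not tested, so the separate values of mitochondrial members with a nuclear copy are uncertain.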

How the data were processed

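Total RNA, extracted with TRIzol per the labels' protocols, was sequenced in 6 libraries, 1 per genotype and light time. The submitters' processing notes list HISAT and Bowtie2, with no version or role. Which quantifier, genome build and annotation served is not given in the sources used here. Deposited values were taken to be FPKM made by the authors. No file header names the unit, which was inferred from values that are not whole, from sums that differ between libraries and from the form of the locus names. The low values show no whole-read steps, so the depth is unknown, and values carry no counting interval.

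Members were found by identifier. From the deposited FPKM, limma 3.58.1 in R 4.3.3 fitted log2(FPKM + 1) on light time and genotype with a variance trend over the 18441 loci that reached an FPKM of 1 in some library, with Benjamini-Hochberg adjustment over these and a threshold of 0.05. Single libraries were compared by size alone. The fit was also run on data simulated from the additive model itself, with genotype differences constant over light time. Such data cannot show how the fit treats members whose difference changes with light. Named were members passing any of the 4 contrasts, the 3 most abundant of each organelle, the 2 highest and 2 lowest differences per light time and those listed at 0. The members and lists were chosen with earlier results of these data known. Alternatives were a pseudocount of 0.1, no filter or an FPKM of 5, median-ratio scaling, totals equalised over nuclear loci, no variance trend, no light time term, a light time left out, a 4-fold threshold and sums without the highest member. Pairing of members with near-copies by protein identity was not run.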

Additional observations from a re-analysis of the deposited data

Results flagged for a closer look

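For 3 loci the light response had opposite signs in WT and RNAi-21, with a size of at least 0.5 on the log2(FPKM + 1) scale in both, a minimum chosen after the values were seen. Each response is 1 library against 1, and the difference between genotypes was not tested. ATCG01040 differed between 0.5 h and 0 h by -0.51 in WT and 0.82 in RNAi-21, and between 2 h and 0 h by -0.62 and 1.06. ATCG00100 differed between 2 h and 0 h by -0.90 in WT and 1.27 in RNAi-21. ATMG01170 differed between 2 h and 0 h by -0.54 in WT and 0.93 in RNAi-21.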

How the results depend on the processing

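Effects of members in contrasts they did not pass were not followed through the alternatives, and their sign can hang on 1 light time. ATCG01040, for one, had a genotype effect of -0.13 over the 3 times, but differences of 0.20 at 0.5 h and 0.54 at 2 h. No member median, and no effect of a member in a contrast it passed, changed sign under the alternatives run. Medians of all genes, which lie near 0, did: with median-ratio scaling the genotype difference at 2 h went from -0.019 to 0.014, and with totals equalised over nuclear loci that at 0 h went from -0.0071 to 0.045. The genotype test called 4 members lower, and 2 with no filter, 2 with no variance trend, 0 with no light time term (adjusted p from 0.48 to 1.00 in limma), 9 without the 0 h libraries, 14 when those of 0.5 h were left out and 1 when those of 2 h were, where the fits without a time have 1 residual degree of freedom. It called 0 higher, and 1 without the 0 h libraries. At 2 h against 0 h, 3 members were called higher, and 1 with a filter of 5 and 6 without the 0.5 h libraries. At 2 h against 0.5 h, 4 were called higher, and 1 with totals equalised over nuclear loci, 2 with no variance trend and 8 without the 0 h libraries. With no filter 3 were called, of which 1 was among the 4, as ATCG00280 (0.050), ATCG01100 (0.057) and ATMG00580 (0.056) passed the threshold no longer, and ATCG01100 had 0.051 with a pseudocount of 0.1 (adjusted p, limma). ATMG00580, called lower at an adjusted p of 0.047, had 0.062 with no filter, 0.055 with a filter of 5 and 0.079 with no variance trend, and ATCG00720 had 0.053 with no filter and 0.054 with no variance trend (limma).

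With a pseudocount of 0.1 the mitochondrial loci 2-fold lower in RNAi-21 numbered 14, 7 and 6 at 0, 0.5 and 2 h in place of 7, 2 and 3. Those 2-fold higher numbered 1 at 0.5 h and 1 at 2 h in place of 0, and 1 plastid locus was higher at 0 h in place of 0. The mitochondrial medians were -1.22 at 0 h and -0.48 at 0.5 h. In the light comparisons of WT the mitochondrial median at 0.5 h was -0.29, and at 2 h 1 plastid locus was lower and 1 mitochondrial locus higher in place of 0. In RNAi-21, 2 plastid and 1 mitochondrial loci were higher at 0.5 h, and 10 plastid and 6 mitochondrial at 2 h in place of 5 and 1, with a mitochondrial median of 0.77.

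At a 4-fold threshold 2, 1 and 0 plastid loci and 0, 0 and 0 mitochondrial loci were lower in RNAi-21 at 0, 0.5 and 2 h, and 0 plastid loci were higher at 0.5 h and 0 at 2 h. Of the light comparisons, 0 plastid and 0 mitochondrial loci were 4-fold lower in WT at 0.5 h, in RNAi-21 0 plastid loci were higher at 0.5 h, and 1 plastid and 0 mitochondrial loci were at 2 h. With a filter of 5, 1 mitochondrial locus was lower and 0 plastid loci were higher at 0.5 h, 0 plastid loci were higher at 2 h, and in RNAi-21 0 plastid loci were higher at 0.5 h of light and 0 mitochondrial loci at 2 h. With median-ratio scaling 1 mitochondrial locus was lower at 0.5 h and 1 plastid locus at 2 h. With totals equalised over nuclear loci 2 plastid loci stood 2-fold higher in RNAi-21 after 2 h of light, and the median genotype difference of all genes at 2 h was -0.12 in place of -0.02. The cause of these shifts was not tested.

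Without its highest member the plastid share was 0.0216%, 0.0167% and 0.0189% in WT at 0, 0.5 and 2 h and 0.00758%, 0.00995% and 0.0141% in RNAi-21. Without ATMG00020 the mitochondrial share was 0.110%, 0.10% and 0.108% in WT and 0.0633%, 0.0742% and 0.0899% in RNAi-21. No paired analysis was possible because each group holds 1 library, so no replicate numbers can be blocked. Light time, which matches the genotypes, is a term of the fit. Depth is unknown, so the precision of the weak loci is unknown too.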
